A study of Mus musculus with 12 samples.

Results

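The mesothelium is the sheet of flattened cells that lines the abdominal cavity and covers the organs in it, and 8 of its genes were followed in white fat and liver. They are Upk1b, Upk3b, Lrrn4, Msln, Pkhd1l1, Krt19, Wt1 and Myrf, out of 22180 genes with a probe that carries a single gene symbol. Each of the 8 has 1 such probe, and all 8 were among the 12710 genes bright enough to be tested. They were taken as a group with earlier results of these arrays known, from log2 levels compared over the 3 tissues and 2 genotypes. Their differences between tissues are therefore given as a description, without a test.

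Mesothelial cells carry features of both epithelium and mesoderm. They make simple-epithelial keratins and uroplakins, and they also express Wt1, a zinc-finger transcription factor. Epididymal fat of the mouse hangs freely in the abdominal cavity under a mesothelial cover, whereas inguinal fat lies under the skin and has none. The liver is covered by mesothelium too, but its bulk is hepatocytes.

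Mouse gene arrays measured RNA of liver and of the epididymal and inguinal depots of white fat, in male wild-type C57BL/6N mice and in age-matched male Mgl2-DTR mice of the same background. Mgl2-DTR mice carry the receptor for diphtheria toxin under the control of Mgl2, the gene that encodes CD301b. Cells that express Mgl2 thereby become sensitive to the toxin. All mice of both genotypes received the toxin, as 500 ng per dose every 3 days into the abdominal cavity, and the tissues were taken on day 10. Each of the 6 groups of tissue and genotype had 2 arrays, and no untreated mouse was part of the comparison.

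Levels are normalized log2 values, so a difference of 1 is a doubling, and replicates are named by their number in the labels. A level of 5.71, the median of all single-symbol probe values, was used as the filter for dim genes, and a probe under it may sit at background. Mgl2 stood at 4.19 to 4.25 in Mgl2-DTR and 7.22 to 7.46 in wild-type epididymal fat, and at 4.12 to 4.72 against 7.07 to 7.36 in inguinal fat. In liver it lay under the filter level in all 4 arrays, at 4.03 to 4.59. The mean of 8 adipocyte genes was 11.96 to 12.40 in the 8 fat arrays and 6.03 to 6.16 in liver, and the mean of 8 hepatocyte genes was 12.07 to 12.21 in liver and 4.75 to 6.22 in fat. Several arrays stood apart from their replicates. In epididymal Mgl2-DTR replicate 2, 8 genes of the epididymal duct lay between 6.89 (Rnase10) and 12.53 (Adam7), against at most 4.79 in the other 3 epididymal arrays. The brightest of 2 probes of the testis gene Odf1 was at 11.56 to 12.40 in all 12 arrays, liver included, so this probe does not report on testis RNA. Prm1 and Tnp1 were at 5.46 and 5.18 in this array against 4.83 to 5.35 and 4.25 to 4.48 in the other 3, all under the filter level. Epididymal wild-type replicate 2 had a hepatocyte mean of 6.22 against 4.75 to 4.98 in the other 3, and a mean of 8 skeletal muscle genes of 5.98 against 5.22 to 5.34. The inguinal arrays split by muscle genes, whose mean was 10.41 for the second wild-type array and 9.94 for the first Mgl2-DTR array but 6.62 and 6.49 for their partners. In such whole-tissue RNA, more or fewer mesothelial cells cannot be told apart from more or less RNA per cell.

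Promoters of Upk3b and Lrrn4, both far higher in epididymal fat than in the other tissues, are shown as the 250 bases before the transcription start, 5′ to 3′ on the gene's strand. They were the only ones of the 8 matched in the RefSeq promoter table (build GRCm38.p6), at chr5:136038246-136038495 on the plus strand and chr2:132880863-132881112 on the minus strand. Capitals mark a match on either strand to GGAATG, the core recognised by TEAD factors, or to CTGGCAC, that of MYRF.
Upk3b: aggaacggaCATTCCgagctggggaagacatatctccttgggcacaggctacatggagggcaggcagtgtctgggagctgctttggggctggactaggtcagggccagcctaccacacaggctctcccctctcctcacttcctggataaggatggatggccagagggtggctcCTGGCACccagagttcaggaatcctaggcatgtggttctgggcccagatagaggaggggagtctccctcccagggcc
Lrrn4: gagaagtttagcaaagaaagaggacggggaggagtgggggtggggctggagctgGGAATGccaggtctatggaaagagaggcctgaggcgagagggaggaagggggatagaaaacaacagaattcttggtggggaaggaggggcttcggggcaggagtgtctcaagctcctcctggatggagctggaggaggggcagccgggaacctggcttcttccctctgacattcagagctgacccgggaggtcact
Both promoters held GGAATG, which 12.6% of 32851 promoter windows of this length held, starting 196 bases before the start in Lrrn4 and lying on the opposite strand from 241 bases before it in Upk3b. The letters CTGGCAC stood 77 bases before the start of Upk3b and in 4.19% of all windows. Neither window held GCGTGGGAG, the WT1 element (0.405% of all windows), or TATAAA, the TATA box (12.4%). Both were richer in G and C than the median window, at 60.8% and 59.2% against 52.4%. Of 16 windows matched for the further mesothelial genes listed below, 2 held GGAATG and 0 held CTGGCAC. These matches describe letters, and binding was not measured.

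The mesothelial genes were high in epididymal fat of both genotypes, and most lay under the filter level elsewhere. In all, 8 of the 8 genes had a mean above the filter level in epididymal fat, 2 in inguinal fat (Upk3b and Wt1) and 3 in liver (Upk3b, Wt1 and Myrf). Of all genes tested, 89.6%, 89.8% and 87.9% did so, so the epididymal count is near that of any gene tested. For 6 of the 8, all but Krt19 and Myrf, each of the 4 epididymal arrays was above each of the 8 others, as held for 4.85% of all genes tested. All 8 genes had every epididymal array above every inguinal array, as did 7.29% of all genes, and 6 had them all above the liver arrays, as did 36.3%. The median difference of the 8 genes was 2.75 between epididymal and inguinal fat and 2.55 between epididymal fat and liver, against -0.02 and 0.14 over all genes tested. The genes were chosen on these values, so the counts only describe them.

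**Figure D1:**
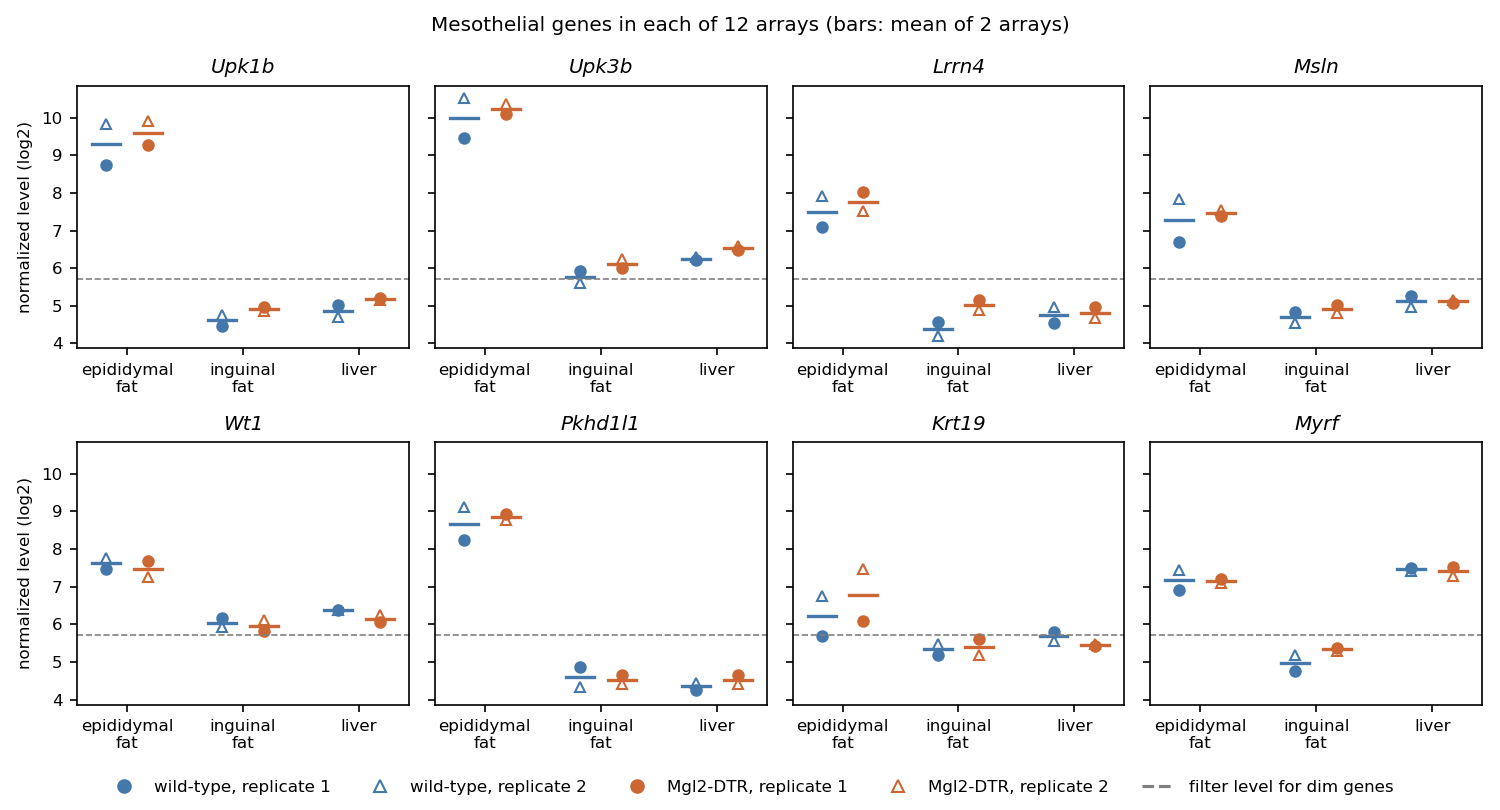
Normalized log2 level (vertical axis) of each of the 8 mesothelial genes in the 12 arrays, by tissue, with wild-type in blue and Mgl2-DTR in orange, replicate 1 as filled circles and replicate 2 as open triangles. Short bars are means of 2 arrays and the dashed line is the filter level of 5.71; Upk1b, Upk3b, Lrrn4, Msln, Wt1 and Pkhd1l1 are apart in epididymal fat, whereas Myrf is as high in liver.

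Uroplakins are membrane proteins best known from the lining of the bladder, and 2 of them are also made by mesothelium. Upk1b, a tetraspanin of that family, was at 8.75 and 9.84 in wild-type and 9.28 and 9.90 in Mgl2-DTR epididymal fat. The same probe gave 4.47 and 4.76 in wild-type and 4.97 and 4.87 in Mgl2-DTR inguinal fat. Liver had 5.01 and 4.71 in wild-type and 5.20 and 5.16 in Mgl2-DTR mice. Every epididymal array thus lay far above every other array, with a gap of 3.55 between the nearest ones. The epididymal minus inguinal difference of 4.68 (SE 0.23) ranked 2 among 12710 genes, although the inguinal level lies under the filter level, which limits the size that can be read.

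Upk3b, which spans the membrane once, was at 9.45 and 10.52 in wild-type and 10.08 and 10.37 in Mgl2-DTR epididymal fat. Inguinal fat had 5.93 and 5.59 in wild-type and 6.00 and 6.23 in Mgl2-DTR mice. In liver the values were 6.21 and 6.29 against 6.48 and 6.59. Levels in epididymal fat were the highest by 2.85 at the nearest arrays, and liver lay slightly above inguinal fat. Upk3b was 17.9-fold higher in epididymal than in inguinal fat (a log2 difference of 4.16, SE 0.21, rank 4) and 13.1-fold higher than in liver (3.71, SE 0.21).

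The other uroplakins, which bladder lining makes with these, did not share the pattern. Upk3a, the closest relative of Upk3b, was at 4.58 to 4.94 in epididymal fat and 4.84 to 5.30 in the other 8 arrays. Upk2 was at 5.36 to 6.01 in epididymal fat and 5.41 to 6.14 elsewhere. Upk1a, the relative of Upk1b, was at 4.34 to 4.72 in 3 epididymal arrays and at 7.02 in Mgl2-DTR replicate 2, the array high in duct genes. Of the urothelial keratin Krt20 the range over all 12 arrays was 4.35 to 4.85. Upk1b and Upk3b were high in all 4 epididymal arrays, also where Upk1a was not.

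Msln encodes mesothelin, a glycoprotein anchored to the cell surface that binds the mucin MUC16. It was at 6.70 and 7.84 in wild-type and 7.39 and 7.56 in Mgl2-DTR epididymal fat. Inguinal values were 4.85 and 4.54 against 5.01 and 4.82, and liver values 5.27 and 4.97 against 5.09 and 5.16. All 8 arrays outside epididymal fat lay under the filter level, and the nearest epididymal array was 1.43 above them. The difference was 2.57 (SE 0.22) to inguinal fat and 2.25 (SE 0.22) to liver.

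Lrrn4, a membrane protein with leucine-rich repeats, was at 7.09 and 7.90 in wild-type and 8.02 and 7.51 in Mgl2-DTR epididymal fat. It was at 4.58 and 4.19 against 5.17 and 4.90 in inguinal fat, and at 4.53 and 4.98 against 4.96 and 4.67 in liver. Both other tissues were under the filter level throughout. The difference was 2.92 (SE 0.21) to inguinal fat and 2.85 (SE 0.21) to liver.

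Pkhd1l1, which encodes the large membrane protein fibrocystin-L, was at 8.25 and 9.11 in wild-type and 8.94 and 8.77 in Mgl2-DTR epididymal fat. In inguinal fat it was at 4.88 and 4.34 against 4.65 and 4.42, and in liver at 4.25 and 4.45 against 4.65 and 4.40. Here too both other tissues lay under the filter level, with a gap of 3.37 to the nearest epididymal array. The difference to inguinal fat was 4.20 (SE 0.20, rank 3) and that to liver 4.33 (SE 0.20).

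Krt19, a keratin of simple epithelia that bile ducts also make, had the smallest difference between the depots of the 8. Its values were 5.70 and 6.76 in wild-type and 6.09 and 7.48 in Mgl2-DTR epididymal fat. Inguinal fat had 5.19 and 5.49 against 5.61 and 5.20, and liver 5.81 and 5.56 against 5.43 and 5.49. Wild-type replicate 1 of epididymal fat lay under the filter level and under the highest liver array, so the tissues overlapped. The highest value belonged to the array with duct genes, in which the epithelial adhesion gene Epcam was at 8.53 against 4.54 to 5.62 in the other 3. The epididymal minus inguinal difference of Krt19 was 1.14 (SE 0.31) with it and 0.79 without it.

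Wt1 is the transcription factor by which mesothelium and some stromal progenitors of visceral fat are traced. It was at 7.48 and 7.76 in wild-type and 7.67 and 7.26 in Mgl2-DTR epididymal fat. In inguinal fat it was at 6.16 and 5.94 against 5.83 and 6.11, and in liver at 6.38 and 6.39 against 6.07 and 6.24. Its arrays agreed closely within each tissue, and epididymal fat lay above the rest by 0.87 at the nearest arrays. It was 2.90-fold higher than in inguinal fat (1.54, SE 0.13) and 2.42-fold higher than in liver (1.28, SE 0.13).

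Myrf, a transcription factor released from the membrane by its own cleavage and best known from myelin-forming cells, differed from the others in liver. It was at 6.91 and 7.43 in wild-type and 7.20 and 7.10 in Mgl2-DTR epididymal fat, and at 4.75 and 5.18 against 5.37 and 5.30 in inguinal fat. Liver had 7.50 and 7.42 against 7.54 and 7.28. Epididymal fat and liver overlapped, while inguinal fat lay under the filter level. The difference was 2.01 (SE 0.14) to inguinal fat and -0.28 (SE 0.14) to liver.

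The difference between the depots was present in each genotype. Epididymal minus inguinal fat was 4.68 in wild-type and 4.67 in Mgl2-DTR mice for Upk1b, 4.22 and 4.11 for Upk3b, 2.58 and 2.56 for Msln, and 1.57 and 1.50 for Wt1. The widest spread between the genotypes was that of Krt19, at 0.89 and 1.38. Its direction rested on epididymal Mgl2-DTR replicate 2, the array with duct genes, where Krt19 was at 7.48 against 6.09 in replicate 1. Without that array the epididymal genotype value of Krt19 was -0.14. Both arms entered the choice of the genes, so these values are a description.

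The comparison of genotypes asks whether depletion of CD301b-positive phagocytes altered the mesothelial genes. No genotype change of these genes was detected in any tissue: 0 of 8 passed at a limma adjusted p under 0.05 in epididymal fat, inguinal fat or liver, and 0 had an unadjusted p under 0.05. Over all genes, 0.0315% were called in epididymal fat, 0.197% in inguinal fat and 0.0708% in liver. In epididymal fat, 6 of the 8 values were positive, from 0.18 for Pkhd1l1 to 0.55 for Krt19, and Wt1 (-0.15) and Myrf (-0.023) were negative. Their median was 0.22 against 0.0049 over all genes tested (51.0% positive). The genotypes overlapped for all 8, whereas they were apart for 29.5% of all genes.

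The intervals give the size of change that the limma fit leaves possible in epididymal fat. The 95% interval of the limma fit ran from -0.43 to 1.03 for Upk1b, from -0.43 to 0.91 for Upk3b and from -0.49 to 0.90 for Msln. It was narrowest for Wt1, from -0.56 to 0.26, and widest for Krt19, from -0.44 to 1.54. A doubling thus lay outside the interval for Upk3b, Msln, Lrrn4 (-0.40 to 0.93), Pkhd1l1 (-0.45 to 0.80), Wt1 and Myrf (-0.48 to 0.43), and inside it for Upk1b and Krt19. These intervals rest on 1 estimate of the spread shared by the 6 groups. For 6 of the 8 genes the SD over 4 arrays was larger in epididymal fat than in either other tissue. The SD of Msln was 0.81 in wild-type epididymal and 0.22 in wild-type inguinal fat. The intervals may thus be too narrow for epididymal fat, and a doubling that lies outside one is not thereby excluded.

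**Figure D2:**
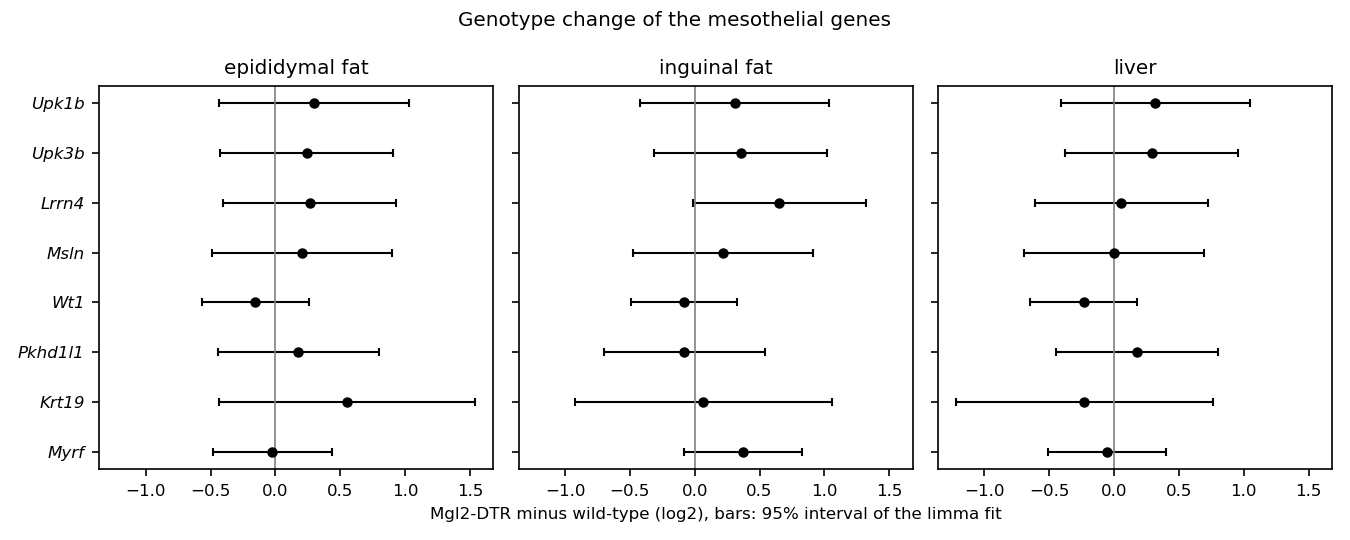
Mgl2-DTR minus wild-type difference (horizontal axis, log2) of the 8 mesothelial genes in each tissue, with bars for the 95% interval of the limma fit over all 12 arrays. Every interval includes 0; the nearest to leaving it out is that of Lrrn4 in inguinal fat, from -0.02 to 1.32.

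In inguinal fat, Lrrn4 had the largest value, 0.65 (SE 0.30; limma adjusted p = 0.728), with 5.17 and 4.90 in Mgl2-DTR against 4.58 and 4.19 in wild-type fat. Myrf followed at 0.37 (SE 0.20), then Upk3b at 0.36 and Upk1b at 0.31. For these 4 genes both Mgl2-DTR arrays were above both wild-type arrays, as held for 36.5% of all genes, and the genotypes were apart in either direction for 46.9%. The median of the 8 was 0.26, while the median of all genes tested was itself 0.10, with 70.7% positive. Of the 4, Upk3b alone had an inguinal mean above the filter level. Each genotype held 1 of the inguinal arrays high in muscle genes, and the Lrrn4 value was 0.46 without the wild-type one and 0.52 without the Mgl2-DTR one. The test of a difference in genotype change between epididymal and inguinal fat called 0 of the 8 genes, with 0 at an unadjusted p under 0.05, and 0% of all genes, of which 364 had an unadjusted p under 0.05. The largest values there were 0.49 (SE 0.62) for Krt19 and -0.39 (SE 0.29) for Myrf.

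In liver the 8 values lay between -0.23 and 0.32. Both Mgl2-DTR arrays were above both wild-type arrays for Upk1b and Upk3b and below them for Wt1 and Krt19, so 4 of the 8 genes were apart, as were 34.4% of all genes (19.2% higher and 15.2% lower). Wt1 differed by -0.23 (SE 0.18) and Upk1b by 0.32 (SE 0.32). The median of the 8 was 0.03 against 0.01 over all genes.

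The mesothelial genes differed more between the 2 wild-type epididymal arrays than between the genotypes. Wild-type replicate 1 was the lowest of the 4 epididymal arrays for 7 of the 8 genes, all but Wt1, as it was for 36.4% of all genes tested. It lay below wild-type replicate 2 for all 8, as it did for 53.9% of all genes. The gap was 1.09 for Upk1b, 1.08 for Upk3b, 1.14 for Msln and 0.28 for Wt1, and 0.86 on average. For each of the 8 it was larger than the genotype change of the same gene. A gap between single arrays varies more than a difference of 2-array means, so this count alone does not set these genes apart. Across the 4 arrays the SD was 0.54 for Upk1b and 0.78 for Krt19, down to 0.22 for Wt1 and Myrf, against a median of 0.19 over all genes tested.

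The direction of the epididymal genotype values rested on these arrays. Without wild-type replicate 1, 7 of the 8 values were negative, from -0.37 for Msln to 0.02 for Krt19, with a median of -0.27. Without wild-type replicate 2, 7 of the 8 were positive and the median was 0.72; the lowest adjusted p was then 0.0600, for Msln at 0.77. Without Mgl2-DTR replicate 2, the array with duct genes, the median was 0.08 and Krt19 was at -0.14. The sign thus changed with the array left out.

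Other gene lists also differed between the 2 wild-type arrays. In the order wild-type replicate 1, wild-type replicate 2, Mgl2-DTR replicate 1 and Mgl2-DTR replicate 2, the mean of the 8 mesothelial genes was 7.54, 8.40, 8.09 and 8.24. The mean of 10 macrophage genes was 10.38, 9.62, 9.11 and 8.93, and that of 7 cell cycle genes 7.91, 6.25, 6.69 and 6.48. For 8 genes of fibro-adipogenic progenitors it was 9.39, 9.81, 9.92 and 9.79. Hepatocyte genes averaged 4.92, 6.22, 4.98 and 4.75 and muscle genes 5.33, 5.98, 5.22 and 5.34. Wild-type replicate 1 thus had the lowest mean of mesothelial and progenitor genes and the highest of macrophage and cell cycle genes. Among other lists it also had the lowest mean of general epithelial (5.49), adipocyte (11.96) and further mesothelial genes (7.02), and it was the highest array for 30.7% of all genes tested. Wild-type replicate 2 was the highest array for 5 of the 8 mesothelial genes, as it was for 21.0% of all genes tested. It had the highest mean of hepatocyte and muscle genes. The part of these cells in the mesothelial values was not tested.

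**Figure D3:**
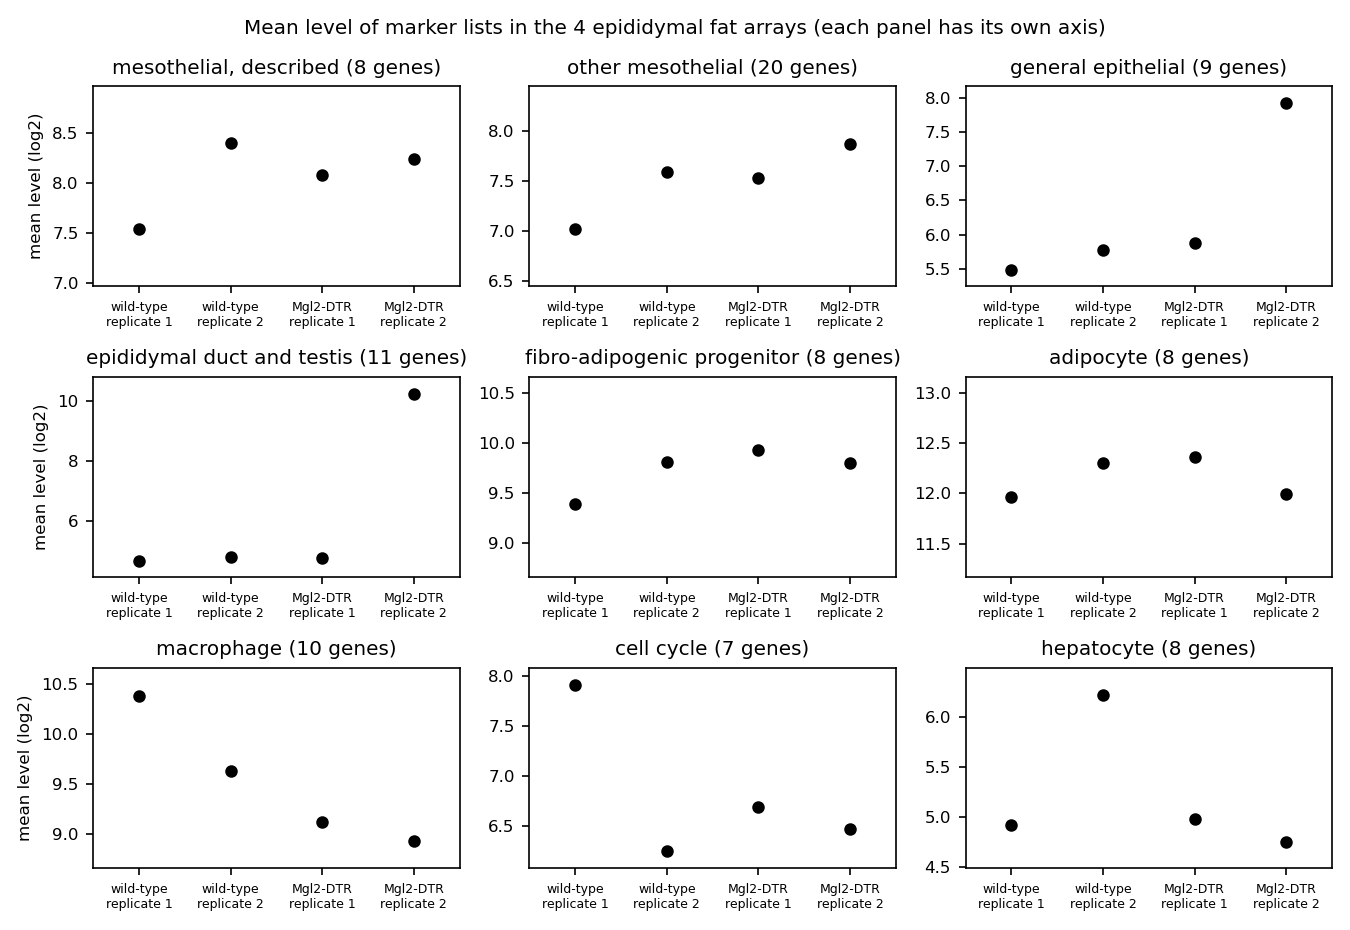
Mean log2 level (vertical axis, scaled per panel) of 9 gene lists in the 4 epididymal fat arrays, 1 point per array. Wild-type replicate 1 is lowest for the 8 mesothelial genes (7.54) and highest for macrophage genes (10.38), and Mgl2-DTR replicate 2 stands apart in epididymal duct and epithelial genes.

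Further genes that mesothelium is known to make were counted from a list of 20. It was chosen from general knowledge but with earlier results of these arrays known, so its counts are not an independent check. Calretinin (Calb2), a marker of human mesothelium, lay at 2.98 to 3.36 in all 12 arrays and was not tested. Of the 19 tested, 10 were higher in epididymal than in inguinal fat by limma and 0 lower, against 3.32% higher and 4.11% lower among all genes. The filter leans this count towards epididymal fat, since Muc16, Bnc1 and Aldh1a2 were called but passed it through epididymal fat alone. Of the 15 genes that passed it in another tissue, 7 were called. With each array left out in turn 7 to 11 were called, and without Mgl2-DTR replicate 2 it was 10.

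Gpm6a, a neuronal membrane glycoprotein, led these calls at 3.09 (SE 0.28; limma adjusted p = 0.000316). Rspo1, a secreted enhancer of Wnt signals, was higher by 2.59 (SE 0.25; adjusted p = 0.000490), and Ezr, which links membrane to actin, by 1.55 (SE 0.18; adjusted p = 0.00155). For the 3 genes admitted through epididymal fat alone the levels are given without a test. Muc16, the mucin partner of mesothelin, averaged 6.25 in epididymal and 3.68 in inguinal fat, the zinc-finger gene Bnc1 6.38 and 4.29, and Aldh1a2, an enzyme that makes retinoic acid, 7.69 and 5.71. The other 4 calls were Dsg2, Nkain4, Krt8 and Gata6, of which Dsg2 and Nkain4 also had inguinal means under the filter level. The epididymal mean of Dsg2, 5.64, lay under that level too, and the gene was tested because of its liver mean of 10.06. Its epididymal arrays were at 4.60 and 5.28 in wild-type and 5.46 and 7.21 in Mgl2-DTR fat, the last being the array with duct genes. Muc16 was under the filter level in all inguinal and liver arrays, at 3.37 to 4.13, as was Msln.

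Several listed genes did not separate the depots. Pdpn (0.64, adjusted p = 0.115), Krt7 (0.66), Sulf1 (0.42) and Efemp1 (0.43) missed the threshold by limma, and Anxa8 (-0.73), Tbx18 (-0.24) and Cldn15 (-0.06) were lower in epididymal fat without passing. Against liver, 15 of the 19 were higher in epididymal fat and 4 lower, beside 39.5% higher and 26.4% lower among all genes. The 15 include Muc16, Bnc1, Aldh1a2 and Krt7, which passed the filter through epididymal fat alone. The 4 lower ones were the epithelial genes Dsg2 (-4.42), Krt18 (-2.68), Krt8 (-2.16) and Dsp (-1.78), which hepatocytes also make. The largest of the 15 were Sulf1 (3.98), Efemp1 (3.76), Gpm6a (3.67), Pdpn (3.31), Rspo1 (2.73) and Cldn15 (2.65).

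**Figure D4:**
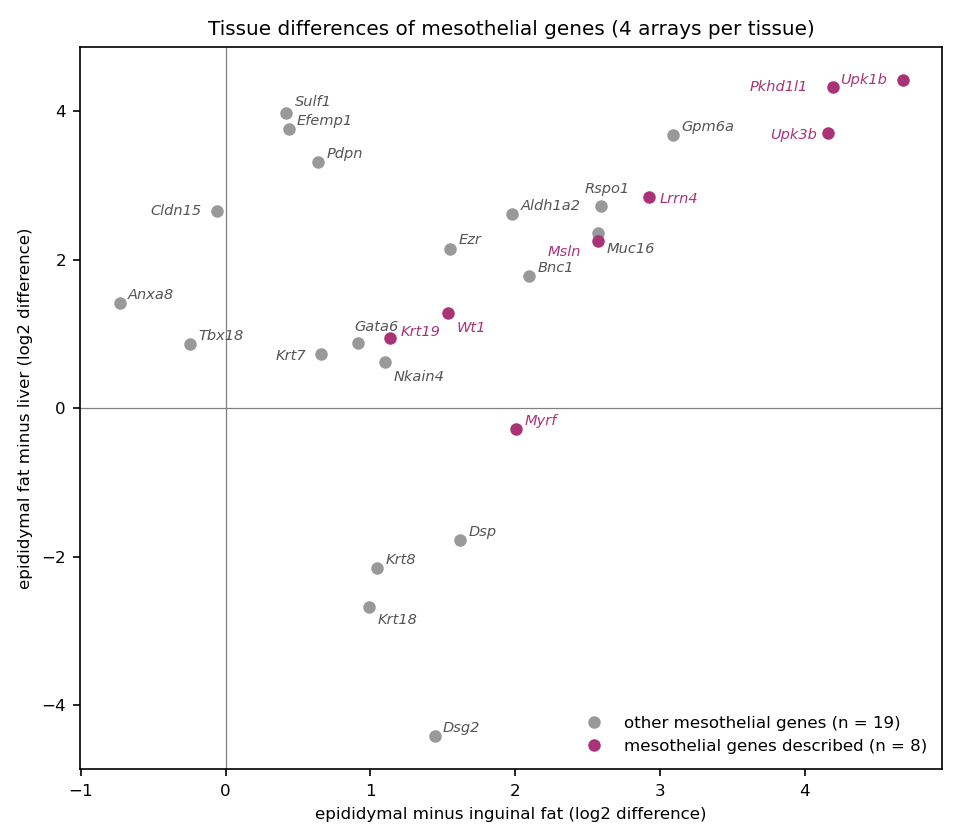
Epididymal minus inguinal difference (horizontal axis, log2) against epididymal minus liver difference (vertical axis, log2) for the 8 mesothelial genes in purple and the 19 tested genes of the further mesothelial list in grey, from means of 4 arrays per tissue. Upk1b, Pkhd1l1 and Upk3b lie at the upper right, and Myrf lies at 2.01 and -0.28.

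No genotype change was detected among the further mesothelial genes, with 0 of 19 called by limma in each tissue and 3, 2 and 0 at an unadjusted p under 0.05 in epididymal fat, inguinal fat and liver. Over all genes 6.98%, 6.93% and 5.53% had such a p. In epididymal fat the smallest p-values were those of Dsg2 (1.40, SE 0.48; adjusted p = 0.710), Ezr (0.68, SE 0.26) and Krt8 (0.69, SE 0.29). All 3 were highest in Mgl2-DTR replicate 2, at 7.21, 10.44 and 8.22 against at most 5.46, 9.59 and 7.40 in the other 3, as were the epithelial genes of the duct. Muc16 differed by 0.37 and Rspo1 by 0.37, both without passing. In inguinal fat Aldh1a2 had the smallest p (-0.75, SE 0.24; limma adjusted p = 0.598), followed by Cldn15 (0.59) and Bnc1 (0.48), and in liver Muc16 (0.41), Cldn15 (0.26) and Ezr (0.28) did.

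The profile over all 12 arrays was shared closely by 6 of the 8 genes. Pearson's r with the mean of the other 7 was 0.96 for Wt1, 0.97 for Pkhd1l1 and Lrrn4 and 0.99 for Upk1b, Msln and Upk3b. Krt19 had 0.81 and Myrf 0.46. The arrays fall into 3 tissues and these values mainly repeat the tissue difference, so they describe likeness and carry no p.

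Among 1617 other tested genes with an SD of at least 1 over the 12 arrays, the 10 closest to the mean profile had r between 0.956 and 0.989. They were Slpi, a secreted protease inhibitor (0.989), Lrp2, the endocytic receptor megalin (0.989), Chst4, a sulfotransferase (0.989), Muc16 (0.986), the Wnt ligand Wnt2b (0.982), Bnc1 (0.977), Rspo1 (0.971), Plet1 (0.963), the collagen chain Col6a5 (0.961) and the small heat shock protein Hspb7 (0.956). Muc16, Bnc1 and Rspo1 were already on the further mesothelial list. Slpi averaged 8.20 in epididymal fat, 5.53 in inguinal fat and 5.85 in liver, and Lrp2 7.40, 4.22 and 4.51. Of the 10, 9 were lowest among the epididymal arrays in wild-type replicate 1, as were 36.4% of all genes tested, and Col6a5 was lowest in Mgl2-DTR replicate 2. The 10 were picked for likeness to a mean that is itself lowest in that wild-type array, so the count only describes them.

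**Figure D5:**
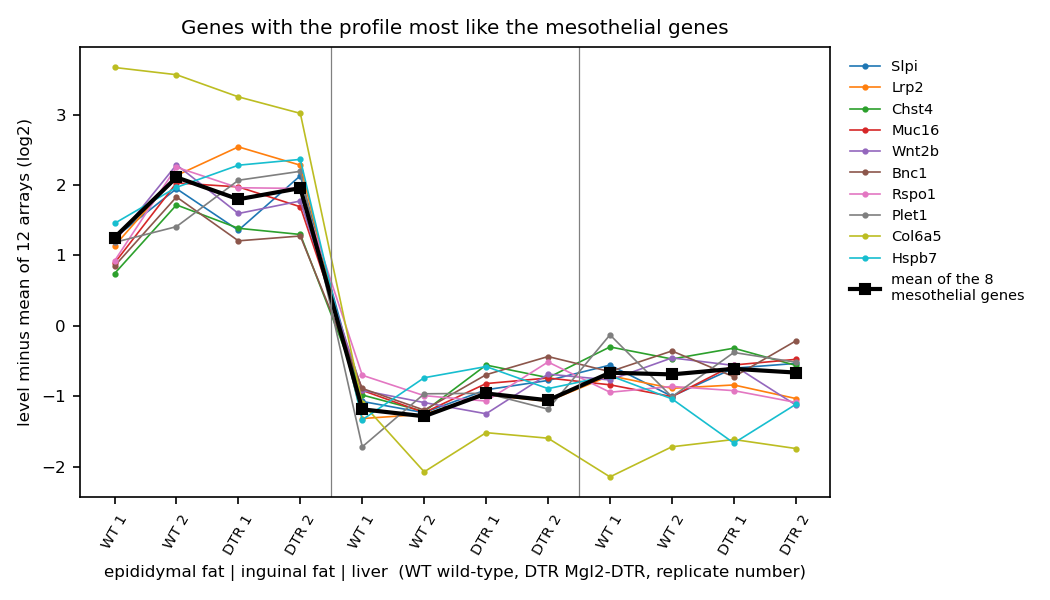
Log2 level minus each gene's mean over the 12 arrays (vertical axis) for the 10 genes most like the mesothelial profile, 1 coloured line each, and for the mean of the 8 mesothelial genes in black, over the arrays of epididymal fat, inguinal fat and liver. All 11 lines are high in the 4 epididymal arrays, and Col6a5 has the widest span, 4.95 between the depots.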

How the data were processed

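The deposited table holds normalized log2 levels of 41345 probes, 1 column per sample, with column medians of 5.19 to 5.28. Per the labels' protocols, RNA was extracted with Trizol, cleared of DNA with DNase I and biotin-labelled using GeneChip WT PLUS reagents. The submitters' processing notes name limma; how background, normalization and probe summaries were handled is not given in the sources used here. Probes were named from the platform annotation, and the brightest of a gene's single-symbol probes was used. Genes whose 4-array mean passed 5.71 in any tissue were tested. Levels of 12710 genes were fitted with limma 3.58.1 in R 4.3.3, with 1 mean for each of 6 groups (6 residual and 3.35 prior degrees of freedom), in two-sided tests with Benjamini-Hochberg adjustment over all genes tested. In data simulated for the epididymal comparison over 12710 genes, changes of 1, 2 and 3 were called in 62.1%, 91.0% and 98.5% of genes. The simulation changed 66, 67 and 67 genes by these sizes. It drew independent noise for each array, with the same SD for a gene in all arrays. It made 172 calls against 4 in the real comparison, whose arrays were uneven. These percentages therefore do not tell how often such a change would be called in the real arrays. All 8 genes were named; of the further mesothelial list those called, up to 6 by size, or the 3 smallest p-values, and the likeness list was the 10 highest r. Other names serve to complete counts and were chosen after values were seen. The 8 genes and all lists were chosen with earlier results of these data known; the macrophage and cell cycle lists were added after the arrays had been seen. Whether replicates came from separate mice is not stated, and p-values then cover only the variation among these arrays, which may be technical. The number of arrays, 2 per group, limits the precision.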

Additional observations from a re-analysis of the deposited data

How the results depend on the processing

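Of the 23 alternatives run, none called any of the 8 mesothelial genes for genotype in any tissue or for a difference in genotype change between the depots (the 75th percentile filter left some of them untested), and none moved a tissue difference of these genes by more than the replicate spread. Over all genes, calls in epididymal fat fell from 4 to 1 with no filter, with quantile normalization again, with array weights, with a replicate block or with a crossed replicate block (added after seeing the data), and to 0 with a filter at the 75th percentile or the arrays of epididymal fat alone. Inguinal calls went from 25 to 55 with array weights, 4 with inguinal arrays alone and 44 without both epididymal wild-type replicate 1 and Mgl2-DTR replicate 2. Liver calls went from 9 to 2 with the replicate block and 1 with the crossed one. Same-numbered arrays were not taken as pairs. Between the genotypes their deviations correlated at 0.053 in epididymal fat, -0.12 in inguinal fat and 0.088 in liver. Between tissues of the same genotype the correlations ran from -0.011 to 0.12. The main fit treated arrays of different tissues as independent. The difference in genotype change went from 0 to 2 calls without those 2 epididymal arrays, epididymal against inguinal fat from 944 to 408 with the arrays of both depots alone, and epididymal fat against liver from 8384 to 5325 with the stricter filter. With each array left out in turn, the calls ranged from 0 to 763 in epididymal fat, 6 to 38 in inguinal fat, 3 to 14 in liver, 0 to 123 for the difference in genotype change, 377 to 2265 between the depots and 7623 to 8218 against liver. The further mesothelial genes called for genotype in epididymal fat ranged from 0 to 3, the 3 arising when Mgl2-DTR replicate 1 was left out.

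Of 24 genotype values of the 8 genes, 10 kept their sign throughout. Without both epididymal wild-type replicate 1 and Mgl2-DTR replicate 2, the epididymal values turned to -0.55 for Upk1b, -0.44 for Upk3b, -0.45 for Msln, -0.17 for Pkhd1l1 and -0.68 for Krt19. The inguinal value of Krt19 turned to -0.0014 with quantile normalization again and -0.043 with cyclic loess. With each array left out in turn, epididymal values ranged from -0.24 to 0.84 for Upk1b, -0.30 to 0.78 for Upk3b, -0.14 to 0.67 for Lrrn4, -0.37 to 0.77 for Msln, -0.36 to 0.050 for Wt1, -0.25 to 0.61 for Pkhd1l1, -0.14 to 1.25 for Krt19 and -0.29 to 0.24 for Myrf. Inguinal values ranged from -0.22 to 0.059 for Wt1, -0.35 to 0.19 for Pkhd1l1 and -0.14 to 0.27 for Krt19, and liver values from -0.17 to 0.28 for Lrrn4, -0.15 to 0.15 for Msln and -0.18 to 0.074 for Myrf. The cause was not tested. Probes under the filter level limit the size of the tissue differences, and a group left with 1 array is assumed to vary like the others.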

Other observations

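Genes of the large macrophages that live in the fluid of the abdominal cavity were counted as well. The list of 8 was likewise chosen with earlier results of these arrays known. By limma, 4 were higher in epididymal than in inguinal fat and 0 lower, beside 3.32% and 4.11% of all genes. They were Alox15 (2.52, SE 0.23; adjusted p = 0.000337), F5 (1.64, SE 0.36), Cd5l (1.49, SE 0.21) and Gata6 (0.92, SE 0.18), which mesothelial cells also express. F5 and Cd5l were higher still in liver, at 11.49 to 11.62 and 9.31 to 10.24, against 6.76 to 8.07 and 6.17 to 7.26 in epididymal fat. Among the epididymal arrays F5 was highest in wild-type replicate 2, which also had the highest hepatocyte mean. Cd5l lay under the filter level in all inguinal arrays, at 4.56 to 5.43. Those of the 8 not called were Prg4 at 0.74 (SE 0.48), Icam2 at 0.046 (SE 0.17), Timd4 at 0.025 (SE 0.24) and Selp at 0.0041 (SE 0.17). None of the 8 was called for genotype in epididymal fat by limma, with 1 at an unadjusted p under 0.05, Alox15 at -0.85 (SE 0.33). Its levels were 8.96 and 9.70 in wild-type and 8.85 and 8.09 in Mgl2-DTR epididymal fat.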
